A study of Mus musculus with 10 samples.

Results

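LSD1-knockout marginal zone B cells (MZB) were compared with LSD1-knockout follicular B cells (FoB) to ask which differences between these cell types are found when the demethylase is missing. The comparison used 5 of the 10 libraries of the series, 2 of knockout MZB and 3 of knockout FoB, chosen by their labels for cell type and LSD1 status and by no measured value. It covered all 9690 genes of the deposited mRNA-per-cell table. The cells came from spleens of female C57BL/6J mice, were not stimulated, and were sorted as B220+ cells lacking Thy1.1, F4/80, CD11b, CD93 and GL7. MZB were in addition CD1d+ with high CD21 and no CD23, and FoB were CD23+ with intermediate CD21 and no CD1d. The matching wild-type libraries, 3 of MZB and 2 of FoB from the same sorts and strain, show the same difference with LSD1 present. No source used here gives the ages of the mice, the deleted exons, a Cre driver or whether separate animals stand behind the libraries. The p-values therefore measure only how far these libraries spread, and that spread may be technical.

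LSD1, encoded by Kdm1a, removes methyl groups from lysine 4 of histone H3, mostly as the catalytic subunit of the CoREST and related repressor complexes. MZB sit at the border between white and red pulp, depend on NOTCH2 signalling, are held in place by sphingosine phosphate receptors and integrins, and respond quickly to blood-borne antigens. FoB recirculate between blood and lymphoid follicles, guided by integrin β7 and chemokine receptors, with the factor KLF2 acting on many of these genes.

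The recovered reads numbered 5375255 and 6711847 in the knockout MZB libraries and 4161051 to 5776026 in the knockout FoB libraries. Values are given as mRNA molecules per cell, as deposited, and after rescaling each library so that its typical gene is at the level of the mean library. Summed over all genes, there were 105590 and 121071 molecules per cell in the knockout MZB libraries. The knockout FoB libraries had 48149, 55704 and 43562, so that the groups did not overlap. The ratio of the means, 113331 ± 10946 (SD, n = 2) to 49138 ± 6131 (SD, n = 3), was 2.31, against 1.75 between the wild-type cell types, and the exact two-sided permutation p of 0.1 is the smallest that 2 and 3 libraries allow. Each read stood for 2.3 and 2.51 times as many molecules in the knockout MZB libraries as in knockout FoB library 3, the lowest of its group. In the other knockout FoB libraries it stood for 1.28 and 1.51 times as many as in library 3. This total comes from the authors' conversion from reads to molecules, which cannot be told apart from a difference in RNA content with these files.

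Kdm1a was read first, as a check of the labels. Per cell it stood at 5.37 and 5.94 in the knockout MZB libraries and at 2.04, 2.36 and 1.93 in the knockout FoB libraries. After rescaling the values were 3.48 and 3.37 against 3.01, 3.09 and 3.09, and all 5 lay below every wild-type library, where the lowest was 5.64. The rescaled log2 difference between the knockout cell types was 0.15 ± 0.06 (SE), with a limma adjusted p of 0.0931 and a 95% interval of 0.01 to 0.29. Kdm1a overlaps Luzp1 on chromosome 4 (136550533 to 136602787, GRCm38), and transcript from undeleted exons cannot be told apart from intact transcript.

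Per cell, nearly every gene was higher in knockout MZB. limma with Benjamini-Hochberg adjustment called 9426 genes higher (97.3% of those tested) and 43 lower (0.444%), which is 97.7% in all, with a median log2 difference of 1.13 over all genes. After rescaling, 1761 genes were called higher (18.2%) and 1651 lower (17.0%), with a median difference of 0.00 and 35.2% called in all. The libraries of the 2 knockout groups did not overlap after rescaling for 56.3% of genes, with MZB higher for 27.9% and lower for 28.4%. Among the called genes, 377 differed by more than 2-fold upwards and 131 downwards. On both scales together, 1802 genes (18.6%) were called in the same direction, whereas 1410 (14.6%) were called in opposite directions, all of them higher per cell and lower after rescaling. A statement that a gene is higher or lower below refers to the rescaled values unless per-cell values are named. Without knockout MZB library 1 the rescaled count was 1100 higher and 893 lower. With libraries scaled by their summed values 2047 were higher and 1267 lower, and with quantile scaling 1589 and 1771.

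The genes furthest apart between the knockout cell types were also called in the same direction between the wild-type cell types. Of the 1089 genes that met the naming rule in this direction, the 10 with the largest rescaled difference were Tsga13, S1pr3, Myof, Ackr2, Mki67, Plxnd1, Cd9, Rgs10, Asb2 and Rec8, with log2 differences between 4.42 and 3.19. Of the 16 that met it in the other direction, the 10 with the largest difference were Pde2a, Fcer2a, Rflnb, Cacna1i, Klf2, Bach2, Tsc22d3, Hvcn1, Mapk11 and Zfp36l2, between −2.72 and −1.70. Each of the 20 passed the test in all 20 alternative analyses.

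S1pr3 encodes a sphingosine 1-phosphate receptor with a part in keeping MZB in the marginal zone. It stood at 19.5 and 21.4 molecules per cell in the knockout MZB libraries and at 0.294, 0.417 and 0.311 in the knockout FoB libraries. The rescaled difference was 25.1-fold (log2 4.0 ± 0.10 SE, limma adjusted p = 9.19e-10). The wild-type log2 difference was 4.20, and the difference between genotypes was −0.20 (95% interval −0.52 to 0.13). Cd9, a tetraspanin used as an MZB marker, held 18.6 and 16.6 molecules per cell against 0.329, 0.633 and 0.318, a 17.7-fold rescaled difference (log2 3.61 ± 0.15 SE, adjusted p = 2.58e-08). Myof, which encodes the membrane-repair protein myoferlin, held 20.2 and 23.4 against 0.373, 0.536 and 0.345 (21.9-fold, log2 3.91 ± 0.09 SE, adjusted p = 6.22e-10). For all 3 genes every knockout MZB library lay above every knockout FoB library, which the naming rule required after rescaling.

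Ackr2, a scavenging receptor for inflammatory chemokines, was at 11.3 and 14.2 molecules per cell in knockout MZB and at 0.13, 0.241 and 0.157 in knockout FoB (30.4-fold, log2 3.86 ± 0.14 SE). Plxnd1, a semaphorin receptor, was at 15.1 and 17.6 against 0.357, 0.315 and 0.199 (23.6-fold, log2 3.83 ± 0.12 SE). Rgs10, which shortens G-protein signalling, was at 8.95 and 10.1 against 0.265, 0.112 and 0.132 (23.1-fold, log2 3.49 ± 0.17 SE). Rec8, a meiotic cohesin subunit, was at 5.67 and 7.09 against 0.0868, 0.147 and 0.0922 (24.7-fold, log2 3.19 ± 0.13 SE). Asb2, a Notch-induced ubiquitin ligase subunit, was at 5.82 and 5.31 against 0.0526, 0.0712 and 0.0349 (44.9-fold, log2 3.29 ± 0.11 SE). The limma adjusted p-values of these 5 genes lay between 4e-09 and 1.1e-07. Their libraries did not overlap between the cell types, which the naming rule required after rescaling. The low side of Asb2, Rgs10 and Rec8 rested on a mean of 6.0, 6.0 and 7.7 reads per knockout FoB library. Tsga13, a gene named for its expression in testis, held 11.6 and 11.2 molecules per cell in knockout MZB, and only 1 read in each knockout FoB library, so that its log2 difference of 4.42 has a loosely determined low side.

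Fcer2a encodes CD23, which the sort used, and its difference is therefore no finding: 32.5 and 35 molecules per cell in knockout MZB against 96.6, 96.1 and 80.3 in knockout FoB (log2 −2.67). Cr2 (CD21) and Cd1d1, whose gates also differed between the cell types, followed them. Cr2 was at 250 and 270 against 34.8, 43.2 and 37.9 (log2 1.49) and Cd1d1 at 70.2 and 78.1 against 4.69, 4.57 and 3.97 (log2 2.75). Cd1d1 and Cd1d2 are near-identical copies whose reads the counting could have split, so each value is uncertain. Ptprc, which encodes B220 and was gated on in both cell types, was lower in knockout MZB (log2 −0.43 ± 0.08 SE, adjusted p = 0.0016).

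Among the genes highest in knockout FoB, Klf2, a zinc finger factor that controls lymphocyte trafficking genes, held 22.8, 25.6 and 19.6 molecules per cell in knockout FoB and 7.63 and 10.4 in knockout MZB. It was thus lower in knockout MZB even per cell, and 6.06-fold lower after rescaling (log2 −2.54 ± 0.08 SE, limma adjusted p = 5.84e-09). Pde2a, a cyclic nucleotide phosphodiesterase, held 6.99, 6.95 and 5.28 against 1.64 and 2.19 (8.06-fold lower, log2 −2.72 ± 0.12 SE). Bach2, a repressor of plasma cell differentiation, held 8.42, 7.0 and 7.19 against 3.7 and 4.56 (4.42-fold lower, log2 −2.01 ± 0.15 SE). Tsc22d3, the glucocorticoid-induced leucine zipper gene, held 7.7, 10.3 and 8.77 against 4.31 and 6.14 (4.14-fold lower, log2 −1.95 ± 0.12 SE). Each knockout FoB library lay above each knockout MZB library for these 4 genes on both scales. The naming rule required this after rescaling, and it also required that the gene be called lower in knockout MZB per cell. Rflnb, an actin regulator, and Cacna1i, a T-type calcium channel gene, were 8.73-fold and 7.64-fold lower in knockout MZB, Hvcn1, a voltage-gated proton channel gene, 3.88-fold, and Zfp36l2, an RNA-binding regulator of mRNA decay, 3.4-fold.

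**Figure D1:**
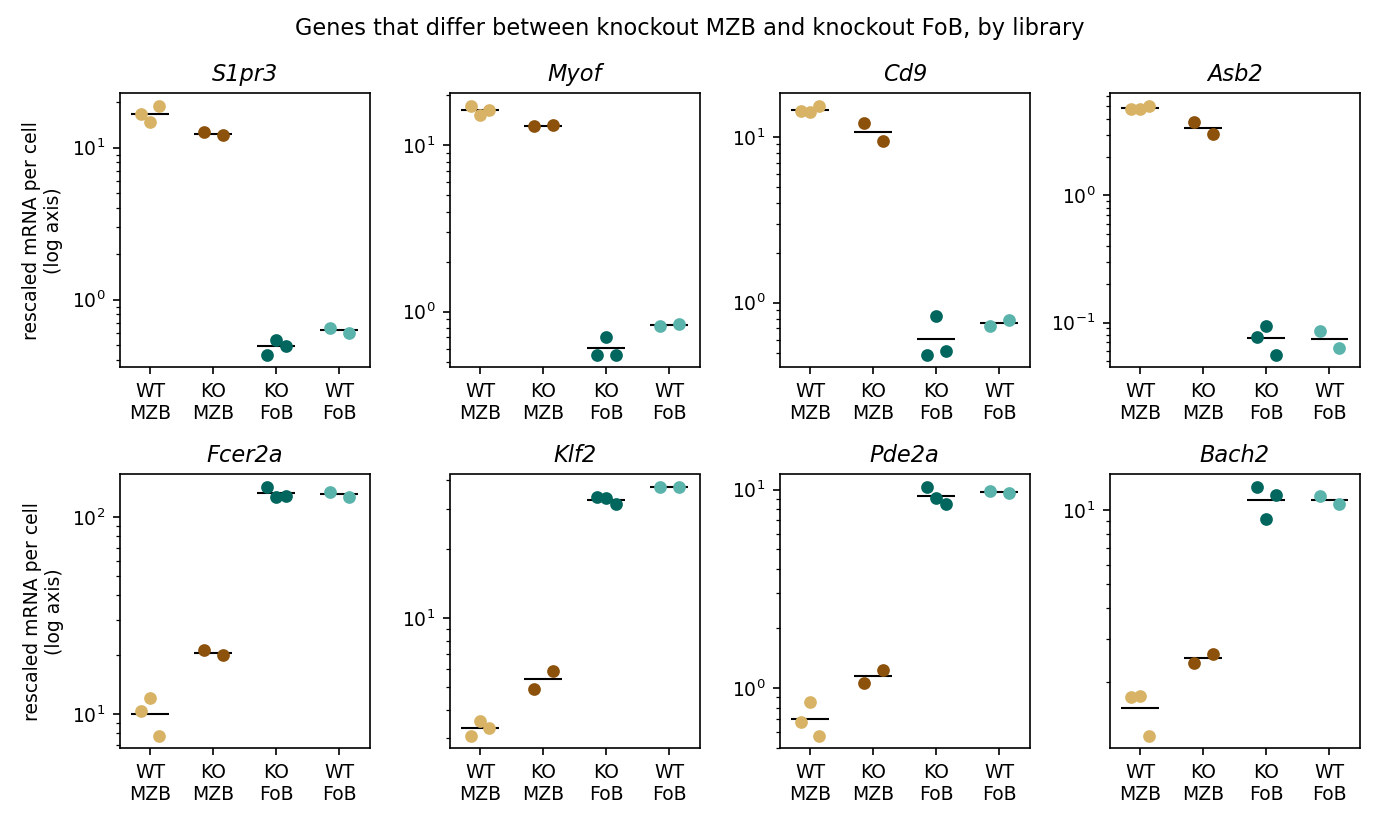
Rescaled mRNA per cell (log axis, separate for each gene) of 4 genes higher in MZB (top) and 4 higher in FoB (bottom) in each library. Points are libraries of wild-type (WT) and knockout (KO) MZB and FoB, and bars are group means. In every panel the 2 knockout MZB libraries lie on the same side of the 3 knockout FoB libraries as the wild-type MZB libraries do of the wild-type FoB libraries. The naming rule required that the libraries of the 2 knockout groups not overlap.

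Promoter windows of 300 bases, from 250 before to 50 after the RefSeq transcript start (GRCm38.p6), were read for these genes: all 10 genes highest in knockout MZB and 8 of the 10 highest in knockout FoB had a window in the RefSeq table used. They were searched on both strands for TGGGAA, the core of the site of the Notch effector RBPJ, and for CCNCNCCC, a site of KLF factors, whose matches can share letters at their ends. S1pr3 (chr13:51408368-51408667, plus strand) and Cd9 (chr6:125494711-125495010, minus strand) are the 2 of 11 windows of the genes highest in knockout MZB that hold TGGGAA. Both also match CCNCNCCC. Klf2 (chr8:72318812-72319111, plus strand) is printed as a gene high in FoB with no TGGGAA, while 4 of 16 windows of that group hold it. The choice was made after values were seen, and the printed windows do not represent their groups. Capitals mark matches to either motif, and neighbouring capitals can hold overlapping matches.
S1pr3: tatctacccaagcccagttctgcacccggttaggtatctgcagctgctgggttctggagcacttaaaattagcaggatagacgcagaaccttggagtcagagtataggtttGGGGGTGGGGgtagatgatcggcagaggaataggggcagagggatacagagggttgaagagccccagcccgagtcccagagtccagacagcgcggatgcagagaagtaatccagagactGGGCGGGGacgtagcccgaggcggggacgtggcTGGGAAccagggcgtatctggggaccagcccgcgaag
Cd9: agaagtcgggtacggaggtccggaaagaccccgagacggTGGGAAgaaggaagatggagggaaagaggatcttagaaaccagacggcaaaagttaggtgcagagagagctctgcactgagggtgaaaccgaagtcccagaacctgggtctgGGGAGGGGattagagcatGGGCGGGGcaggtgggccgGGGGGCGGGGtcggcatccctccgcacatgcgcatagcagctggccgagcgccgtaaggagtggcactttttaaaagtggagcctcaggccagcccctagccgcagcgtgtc
Klf2: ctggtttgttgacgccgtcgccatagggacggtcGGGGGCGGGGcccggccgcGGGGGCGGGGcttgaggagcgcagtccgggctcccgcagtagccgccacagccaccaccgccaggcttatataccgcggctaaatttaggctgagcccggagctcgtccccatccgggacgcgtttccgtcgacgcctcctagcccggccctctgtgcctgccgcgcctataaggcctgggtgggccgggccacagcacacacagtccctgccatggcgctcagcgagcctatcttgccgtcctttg

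TGGGAA occurred in 2 of 11 windows of the genes highest in knockout MZB (18.2%) and in 4 of 16 of those highest in knockout FoB (25.0%). The share among all RefSeq windows was 25.6%, and among windows of the genes measured here it was 22.7%. CCNCNCCC occurred in 54.5% and 62.5% of the windows of the 2 gene groups, in 49.5% of all windows and in 66.7% of those of the genes measured here. These shares describe letters in the windows and no binding was measured.

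The list of 34 measured marginal zone B cell genes gave 28 members higher and 3 lower in knockout MZB, with a median log2 difference of 1.63 beside 0.00 for all genes. Over all genes 18.2% were called higher and 17.0% lower, shares that stand beside the counts of this and the later lists. The median in wild type was 1.78, and 28 of the 34 were called in the same direction in both genotypes. Both counts of 28 include Cr2 and Cd1d1, which the sort used. Fcrl5, an Fc receptor-like protein of MZB, was at 43.9 and 49.3 molecules per cell against 2.33, 2.24 and 1.82 (9.13-fold after rescaling, log2 3.08 ± 0.07 SE, limma adjusted p = 6.22e-10). The members that were lower were Lfng, which modifies Notch receptors, Icosl, a costimulatory ligand, and Rapgef4, a cyclic AMP sensor, at log2 −1.62, −0.80 and −0.79, and all 3 were also lower in wild-type MZB. The members not called were Notch2, Nid1 and Tnfrsf13b, at log2 −0.15, 0.28 and 0.01. Some of these members, and of the counts of 5 or fewer named below, were named after their values were seen.

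The Notch pathway list held 28 measured genes, of which 7 were higher and 5 lower in knockout MZB, with a median log2 difference of 0.01. The 12 called of 28 stand beside 35.2% called over all genes, and without knockout MZB library 1 or 2 the counts were 6 and 3. Dtx1, a Notch-induced ubiquitin ligase, stood at 61.8 and 73 molecules per cell against 5.15, 6.27 and 4.48 (5.32-fold, log2 2.37 ± 0.09 SE, adjusted p = 1.62e-08). Hes1, a repressor that Notch induces, stood at 8.93 and 9.7 against 1.45, 2.0 and 1.35 (2.45-fold, log2 1.19 ± 0.09 SE, adjusted p = 3.25e-06). The receptor gene Notch2 itself was at 27.4 and 33 per cell against 14.8, 15.1 and 12, and after rescaling at log2 −0.15 (95% interval −0.32 to 0.02). Dtx1, Hes1, Asb2 and Lfng had log2 differences of 2.17, 1.10, 3.79 and −1.56 in wild type, and 11 of the 12 called members of this list were called in the same direction in both genotypes.

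The list of 25 follicular B cell genes was the counterpart, with 21 members lower and 1 higher in knockout MZB and a median log2 difference of −1.20 (−1.55 in wild type). All 21 were also lower in wild-type MZB, and they include Fcer2a, which the sort used. Per cell only 4 members were lower, Fcer2a, Klf2, Bach2 and Cd55, and 6 were higher. The exception after rescaling was Fcrl1, an Fc receptor-like gene, at log2 0.23, and Cxcr5, Ly6d and Itga4 were not called (0.17, 0.01 and −0.16).

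Receptors and adhesion molecules that place B cells in the spleen split by cell type. Of 19 positioning receptor genes and their G proteins, 3 were higher (S1pr3, Ackr3 and S1pr1) and 9 lower in knockout MZB. Per cell 13 of them were called higher. Ackr3, a scavenging receptor for CXCL12, was at 3.82 and 3.98 molecules per cell against 0.0308, 0.0651 and 0.0204, the low side resting on a mean of 3.0 reads. S1pr1, the receptor for egress from tissue, was 1.82-fold higher (log2 0.86 ± 0.07 SE, adjusted p = 3.72e-06; 1.30 in wild type). S1pr4, another receptor of that family, was 3.02-fold lower (log2 −1.51 ± 0.10 SE, adjusted p = 9.68e-07; −1.99 in wild type). Of 22 integrin and adhesion genes 8 were higher and 9 lower, a balance that became even or turned under 6 alternatives, with Cd9 and Itga6 as examples. Itga6, the integrin α6 chain, was at log2 −1.20 ± 0.11 SE (adjusted p = 8.7e-06).

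Genes of the quiescence list, not all of them transcription factors, were mostly lower in knockout MZB. Of its 19 members 12 were lower and 1, Cdkn2c, was higher (median log2 −0.38, and −0.44 in wild type). Beside Klf2 and Tsc22d3 these included Klf3, a repressor of the same family, at 3.2 and 3.38 after rescaling against 5.99, 5.46 and 6.82, and Klf6 at 3.85 and 3.63 against 7.29, 7.32 and 8.35. Of 16 immediate early and stress genes limma called 10 lower and 0 higher, with 1 higher at an unadjusted p under 0.05 and 0 higher by limma voom (1 higher without knockout FoB library 2 and with summed-value scaling; median −0.55; −0.72 in wild type). The AP-1 subunit gene Junb was at 3.02 and 2.91 after rescaling against 6.21, 6.92 and 5.81 (log2 −1.02 ± 0.08 SE, adjusted p = 4.39e-06), and Egr3, a zinc finger factor, at 6.05 and 6.33 against 11, 11 and 10.9. In all 4 genes the libraries of the cell types did not overlap after rescaling, beside 28.4% of all genes without overlap and with MZB lower. These 4 genes were named for a small p within their lists, which favours such a gap. The 6 members of the immediate early list that were not called lay between log2 −0.25 and 0.24. Per cell, 15 of the 19 quiescence genes were called higher in knockout MZB and 2 lower. Of the 16 immediate early and stress genes, 11 were called higher per cell and 0 lower.

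Among 37 B cell transcription factor genes 12 were higher and 15 lower, which turned to 13 and 12 with scaling by summed values. Myc, a growth regulator, was at 20.7 and 26.2 molecules per cell against 4.94, 5.19 and 4.17 (2.04-fold after rescaling, log2 1.0 ± 0.09 SE, limma adjusted p = 5.89e-06). Its wild-type log2 difference was 1.05. Mef2c, a factor in B cell receptor responses, was 2.11-fold lower (log2 −1.06 ± 0.09 SE, adjusted p = 8.07e-06). Bcl6, the germinal centre repressor, was 3.24-fold lower (log2 −1.61 ± 0.09 SE, adjusted p = 3.37e-07), less than in wild type, as described below.

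Genes of the cell cycle were higher in knockout MZB for 25 of 32 measured members and lower for 2, Cdt1 and E2f2, with a median log2 difference of 0.69. In wild type 19 were higher and 4 lower with a median of 0.44. The difference between the genotypes passed for 0 of the 32 in limma (18 at an unadjusted p under 0.05) and for 6 in limma voom. With a floor of 1 molecule per cell 22 members remained. Of these, 15 were higher and 2 lower in knockout MZB than in knockout FoB, with a median of 0.43. Mki67, the proliferation antigen gene, stood at 10.1 and 14.9 molecules per cell in knockout MZB against 0.191, 0.144 and 0.162 in knockout FoB (30.9-fold, log2 3.84 ± 0.15 SE, adjusted p = 2.03e-08). In wild type the log2 difference was 2.72, and the difference between genotypes of 1.12 had a limma adjusted p of 0.0613. Top2a, the replicative topoisomerase, was at 9.05 and 12.9 against 0.314, 0.342 and 0.344 (13.5-fold, log2 3.13 ± 0.14 SE), and Ccna2, cyclin A2, at 2.66 and 3.9 against 0.102, 0.0752 and 0.0842 (15.4-fold, log2 2.40 ± 0.16 SE). For these 3 genes knockout MZB library 2 was the higher of the pair. The cell types did not overlap in these 3 genes, beside 27.9% of all genes without overlap and with MZB higher after rescaling. The naming rule required this of Mki67 after rescaling, and Top2a and Ccna2 were named for a small p within the list. In bulk libraries a change in the share of cycling cells and a change per cell cannot be told apart.

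Signalling lists moved in part, and the B cell receptor list holds Cr2, which the sort used. Of 40 B cell receptor signalling genes 12 were higher and 17 lower (10 and 8 without knockout MZB library 1). Blk, a Src-family kinase, was at 139 and 147 molecules per cell against 37.4, 37.7 and 28.9 (1.73-fold after rescaling, log2 0.79 ± 0.08 SE, limma adjusted p = 2.83e-05). Cd5, an inhibitory receptor, was at 1.29 and 1.37 against 0.0862, 0.117 and 0.0686 (log2 1.37 ± 0.16 SE), and its wild-type log2 difference was 0.44 (difference between genotypes 0.93, adjusted p = 0.0809). Of 24 Toll-like receptor genes 12 were higher and 4 lower (Traf6, Irak3, Irak2 and Slc15a4), which became 8 and 1 without knockout MZB library 1 and 11 and 1 without library 2. Tlr9, the receptor for CpG DNA, was 1.51-fold higher (log2 0.58 ± 0.08 SE) and Cd180, a Toll-related receptor, 1.66-fold higher (log2 0.72 ± 0.07 SE). In the canonical NF-kB list of 19, 5 were higher and 9 lower, which became 4 and 3 without knockout MZB library 1, 3 and 8 without library 2, and 5 and 5 with summed-value scaling. In this list the inhibitor gene Nfkbia was 1.82-fold lower and the adaptor gene Traf1 2.15-fold higher. Of 12 genes of the BAFF and non-canonical branch 6 were lower and 1, Cd40, higher, while per cell all 12 were called higher. The BAFF receptor gene Tnfrsf13c was 1.49-fold lower (log2 −0.56 ± 0.09 SE, limma adjusted p = 0.000479).

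Antigen presentation by MHC class II was lower in knockout MZB relative to the other genes, for 12 of 18 members, and 1, the protease gene Ctsb, was higher (median log2 −0.48; −0.53 in wild type). With quantile scaling 9 were lower and the median was −0.22. Ciita, the master activator of this gene group, was at 10.8 and 11.3 after rescaling against 25.7, 22.6 and 22 (2.12-fold lower, log2 −1.06 ± 0.07 SE, limma adjusted p = 1.21e-06), while per cell its values of 16.6 and 19.9 overlapped those of 17.4, 17.2 and 13.7 in knockout FoB. Per cell 17 of the 18 were called higher in knockout MZB. Of 14 costimulatory genes 5 were higher and 5 lower. Cd86, a ligand of CD28, was 2.1-fold higher (log2 1.01 ± 0.07 SE, adjusted p = 1.21e-06), and Slamf1, a homophilic lymphocyte receptor, 3.15-fold lower (log2 −1.47 ± 0.11 SE).

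Cytokine receptor genes were higher for 6 and lower for 9 of 23 measured, which became 6 and 6 without knockout MZB library 1. Csf2rb, the common β chain for IL-3, IL-5 and GM-CSF, was at 13.5 and 14.9 molecules per cell against 0.927, 0.993 and 0.615 (7.07-fold after rescaling, log2 2.56 ± 0.13 SE, limma adjusted p = 1.52e-07). Il2rb was 5.89-fold higher (log2 1.86 ± 0.13 SE), whereas Il4ra and Il21r were 2.51-fold and 2.5-fold lower (log2 −1.28 ± 0.10 and −1.29 ± 0.08 SE). Interferon-stimulated genes were higher for 15 and lower for 2, Ifit1bl1 and Oasl2, of 38 (median log2 0.25; 0.39 in wild type), and for 13 and 0 without knockout MZB library 1, 13 and 1 without library 2 and 19 and 1 without knockout FoB library 3. An example is Mx1, an antiviral GTPase gene, at log2 1.19 ± 0.12 SE. Among 29 plasma cell and secretory genes 8 were higher and 4 lower, or 6 and 1 without knockout MZB library 1, 7 and 2 without library 2 and 8 and 2 without knockout FoB library 2. Pdia4, an endoplasmic reticulum disulfide isomerase, was at 166 and 189 per cell against 16.8, 19.7 and 16.1 (4.22-fold, log2 2.06 ± 0.08 SE, adjusted p = 1.07e-08), and Mzb1, an endoplasmic reticulum chaperone of MZB, 2.09-fold higher. Herpud1, Calr, Manf and Pdia6 were the 4 lower members (log2 −0.51 to −0.25). The counts of these cytokine receptor, interferon and secretory lists stand beside 18.2% of all genes called higher and 17.0% called lower.

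Few oxidative phosphorylation genes were called: of 37, 2 were higher (Atp5c1 and Ndufa10) and 2 lower (Ndufa5 and Ndufs7), a balance that turned under several alternatives, with a median log2 difference of 0.05. Of 33 Myc and ribosome biogenesis genes 10 were higher and 3 lower (median 0.08), and of 18 glycolysis genes 5 and 1 (median 0.13). Without knockout MZB library 1 the ribosome biogenesis counts were 8 and 1. The glycolysis counts were 2 and 0 with a median of 0.03 without knockout MZB library 2, and 3 and 1 without library 1 or without knockout FoB library 1 or 3. The called members of both lists, 13 of 33 and 6 of 18, are a share near the 35.2% called over all genes. Cholesterol synthesis and uptake was lower for 10 and higher for 1, Npc1, of 23 members (median −0.22), and for 6 and 0 without knockout MZB library 1. In this list Srebf2, its main activator, had log2 −0.74. Per cell 18 of the 23 were called higher. Of 21 apoptosis regulators 6 were higher and 3 lower, beside 18.2% and 17.0% of all genes. The BH3-only gene Bid was 2.52-fold higher (log2 1.30 ± 0.09 SE) and Bmf, another of that class, 3.84-fold lower (log2 −1.62 ± 0.11 SE, adjusted p = 1.14e-06). Of 19 genes for LSD1 complex members and partners 2 were higher and 5 lower, a share near that of all genes that became 1 and 2 without knockout MZB library 1, 0 and 4 without library 2, and 1 and 4 or 1 and 7 without knockout FoB library 2 or 3. The lower members include the remodeller gene Chd4 at log2 −0.40 ± 0.08 SE and Zmym2 at −0.55 ± 0.10 SE.

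The B-1 cell list gave 8 of 9 members higher and 1, Spn, lower in knockout MZB (median log2 0.84; 0.39 in wild type). Its members Bhlhe41 and Cd300lf were at log2 1.37 ± 0.14 and 2.54 ± 0.20 SE (0.94 and 3.71 in wild type). Its member Itgam encodes CD11b, against which both cell types were sorted, and it was at 1.39 and 1.77 molecules per cell in knockout MZB against 0.308, 0.299 and 0.223 in knockout FoB. Of the markers of other cells, 1 of 14 for T cells, 2 of 10 for NK cells, 4 of 17 for macrophages, 2 of 9 for dendritic cells, 1 of 6 for platelets and 0 of 9 for neutrophils were measured, and defining ones such as Cd3e, Csf1r and S100a8 were not analysed here. The summed rescaled level of the macrophage markers present was 5.66 to 6.85 in knockout MZB and 5.07 to 6.82 in knockout FoB, and that of the NK markers 1.32 to 1.60 against 0.415 to 0.772. Sums that were lower in knockout MZB without overlap were those of dendritic cell markers (12.7 to 15 against 16.5 to 20.3), 2 of 9 erythroid markers (2.86 to 3.24 against 4.62 to 5.22) and 2 of 6 plasma cell markers (15.1 to 15.9 against 16.6 to 17.1). The 2 dendritic cell markers went opposite ways, with Flt3 called higher and Cst3 called lower. Of the erythroid markers Car2 was called lower and Tfrc was not called. Neither plasma cell marker, Slamf7 or Xbp1, was called. Pecam1, the 1 endothelial marker measured of 8, was at 21.2 to 22.0 against 23.6 to 27.5, and the platelet marker Itgb3 at 1.36 against 2.02 to 2.06. The T cell marker Lck overlapped, at 4.6 to 4.79 against 4.33 to 5.41. The part of other cells in these differences was not tested. The 10 pan-B markers summed to 998 to 1018 in knockout MZB and to 995 to 1085 in knockout FoB, ranges that overlap.

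**Figure D2:**
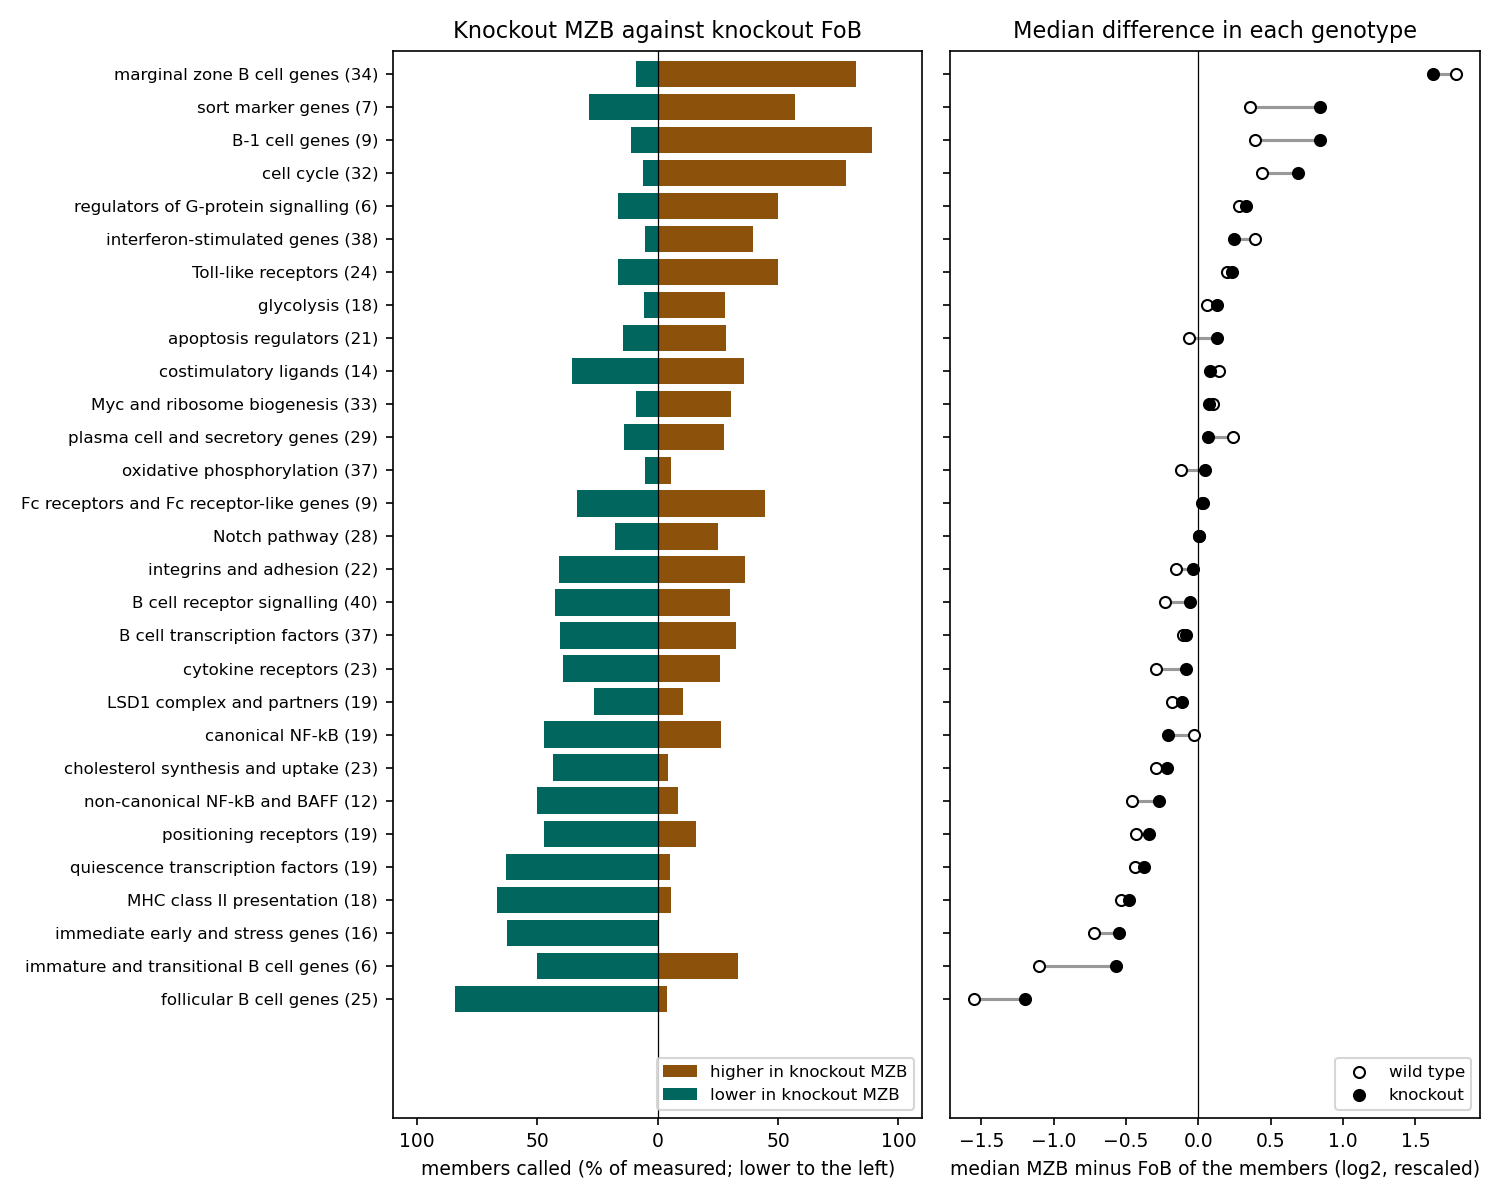
Left, the share of measured members of each list (number in brackets) called higher or lower in knockout MZB than in knockout FoB after rescaling. Right, the median rescaled log2 difference of the members in knockout (filled) and wild type (open). Marginal zone genes lie at the top with 1.63 and 1.78 and follicular genes at the bottom with −1.20 and −1.55. Both of these lists hold genes that the sort used.

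Most differences called in the knockout were also called in wild type. Of the 1761 genes higher in knockout MZB, 1349 were higher in wild-type MZB, which is 76.6% of the knockout list and 55.7% of the 2422 (25.0% of all genes) called in wild type. Of the 1651 lower genes, 1257 were lower in both, 76.1% of the knockout list and 52.0% of the 2416 (24.9%) called in wild type, where 49.9% of genes were called in all. The 2606 shared genes are 26.9% of those tested, and without knockout MZB library 1 they number 1725. In 20 genes the 2 genotypes were called in opposite directions, and the difference between genotypes passed for 3 of these. The comparisons share no library, but they share 1 estimate of the spread.

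The sizes depended on which genotype chose the genes. Of the 96 genes over 4-fold higher in wild-type MZB, 90 were called higher in the knockout, with medians of 2.56 in wild type and 2.23 in knockout, and the knockout difference was the smaller for 82. Of the 74 genes over 4-fold higher in knockout MZB, 72 were called in wild type, with medians of 2.48 in knockout and 2.60 in wild type, and the knockout difference was again the smaller for 45. Of the 39 genes over 4-fold lower in wild-type MZB, 36 were called lower in the knockout, and the knockout difference was the smaller for all 39 (medians −2.45 and −1.76). Of the 14 genes over 4-fold lower in knockout MZB, all 14 were called in wild type, and the knockout difference was the smaller for 13 (medians −2.21 in knockout and −2.61 in wild type). Choosing genes by 1 genotype's estimate favours a larger difference in that genotype, so both directions are given. Over all genes the knockout difference was the smaller in size for 62.5%, and the 2 differences had a Pearson r of 0.836 and a Spearman rho of 0.73 across genes, which are not independent replicates.

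**Figure D3:**
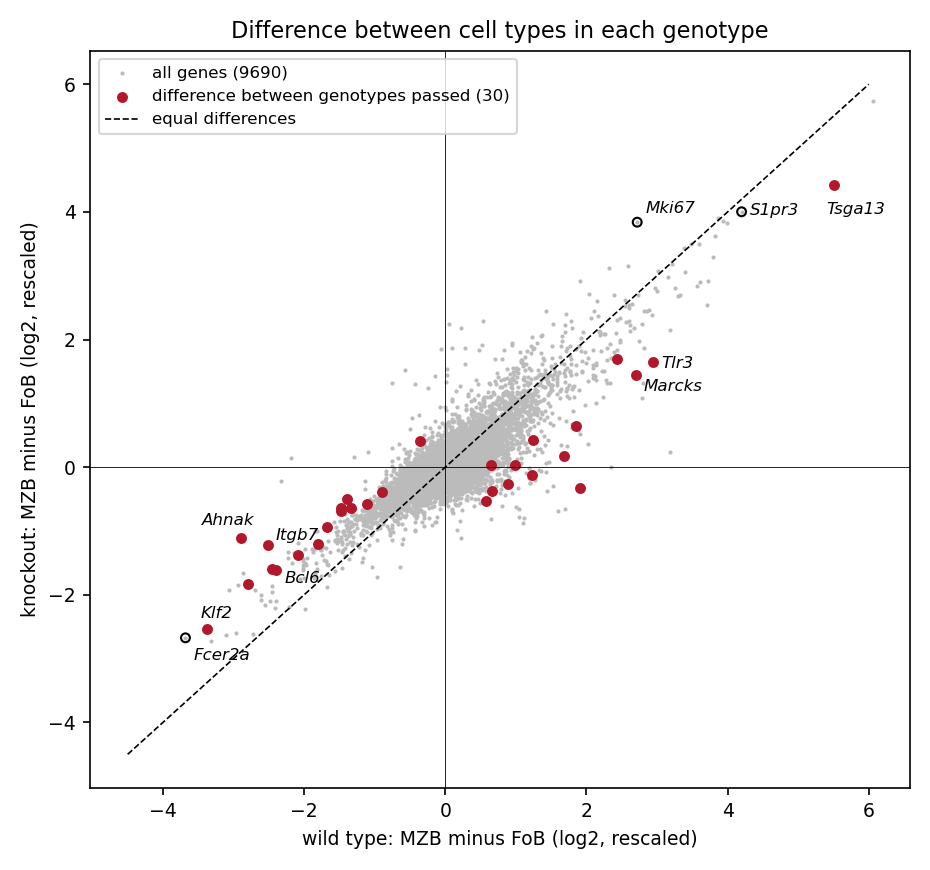
Rescaled log2 difference of MZB minus FoB in knockout (vertical) against wild type (horizontal) for the 9690 genes (grey points). Red points are the 30 genes whose difference itself differed between genotypes, of which 29 have the smaller size in knockout, beside 62.5% of all genes. Open circles mark 3 further genes, and the dashed line marks equal differences.

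Whether a difference between the cell types was itself different without LSD1 was tested with the interaction term. After rescaling, 30 genes passed (0.310% of those tested), 16 with a positive and 14 with a negative change of the MZB minus FoB difference. In 29 of the 30 the difference was smaller in size in the knockout, beside 62.5% of all genes. The exception was Polm, a DNA polymerase gene named here after its values were seen (log2 0.41 in knockout and −0.35 in wild type). In 21 of the 30 MZB and FoB were still called different in the same direction in the knockout. The number of genes is not well determined: it was 349 without knockout FoB library 2, 58 without library 3 and 46 without library 1. Leaving out knockout MZB library 1 or 2 gave 8 or 2 genes, leaving out wild-type MZB library 1 or 2 gave 1 or 18, and leaving out either wild-type FoB library gave 2. limma voom on the recovered reads called 603, of which 78.4% were smaller in size in the knockout, and 27 of the 30 were among them.

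The 6 named genes with a positive change had negative log2 differences in both genotypes, smaller in size in the knockout. Klf2, Itgb7 and Ahnak belong to the follicular list, Jund to the immediate early list, Id3 to that of B cell transcription factors and Mapk11 to none. Itgb7, the integrin β7 chain for homing to mucosal tissue, held 15 and 19.9 molecules per cell in knockout MZB and 16.9, 20 and 14.5 in knockout FoB, groups that overlapped (log2 per cell 0.02, 95% interval −0.37 to 0.42). In wild type it was at 16.9 and 14.3 in FoB and at 3.78 to 5.77 in MZB. After rescaling it was 2.36-fold lower in knockout MZB (log2 −1.22 ± 0.09 SE), beside −2.52 in wild type. This was a change of 1.30 (95% interval 1.02 to 1.58, limma adjusted p = 0.00554) that passed in all 19 alternatives. Ahnak, a large scaffold protein gene, held 2.61 and 2.76 against 2.65, 2.82 and 2.46 per cell (log2 0.02, 95% interval −0.35 to 0.39). Its rescaled log2 difference was −1.10 in knockout and −2.90 in wild type, a change of 1.79 (95% interval 1.32 to 2.27, adjusted p = 0.0213). Itgb7 and Ahnak are thus different between the knockout cell types after rescaling and overlap per cell.

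The promoter window of Itgb7 (chr15:102231886-102232185, minus strand, RefSeq, GRCm38.p6) is shown because the gene had the smallest p of the interaction. Capitals mark CCNCNCCC on either strand, and the window has no TGGGAA.
Itgb7: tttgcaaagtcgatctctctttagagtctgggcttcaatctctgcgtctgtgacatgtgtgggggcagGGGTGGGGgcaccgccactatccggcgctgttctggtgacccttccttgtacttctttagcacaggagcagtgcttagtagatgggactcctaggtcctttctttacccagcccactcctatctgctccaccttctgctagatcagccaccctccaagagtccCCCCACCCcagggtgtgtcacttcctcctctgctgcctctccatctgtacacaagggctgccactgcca
Of the 12 named genes of this test 11 had a RefSeq window. CCNCNCCC occurred in 7 of these 11 windows (63.6%) and TGGGAA in 4 (36.4%). Among windows of the genes measured here the shares were 66.7% and 22.7%, and among all RefSeq windows 49.5% and 25.6%.

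Klf2 was at log2 −2.54 in knockout and −3.37 in wild type, a change of 0.83 (95% interval 0.57 to 1.10, limma adjusted p = 0.0219). The rescaled values were 4.94 and 5.9 in knockout MZB against 3.08, 3.59 and 3.33 in wild-type MZB, and 33.7, 33.5 and 31.4 in knockout FoB against 37.3 and 37.2 in wild-type FoB. Jund, an AP-1 subunit gene, moved by 0.85 (−1.60 in knockout and −2.45 in wild type), and Mapk11, the p38β kinase gene, by 0.96 (−1.82 and −2.79). Id3, an inhibitor of E proteins, moved by 0.83 (−0.65 and −1.48), and its per-cell values were higher in knockout MZB, at 12.1 and 13.7 against 8.24, 11 and 6.86. Bcl6 moved by 0.78 (−1.61 and −2.39; adjusted p = 0.0457).

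The 6 named genes with a negative change had positive log2 differences in wild type. In the knockout Tlr3, Marcks, Tsga13 and Klhl9 had smaller positive ones, and Zfp984 and Vbp1 had negative ones. Tlr3, the receptor for double-stranded RNA, was at 3.91 and 4.23 molecules per cell in knockout MZB against 0.332, 0.39 and 0.483 in knockout FoB, still 4.17-fold higher after rescaling (log2 1.65 ± 0.13 SE), beside 2.94 in wild type. The change of −1.29 had a limma adjusted p of 0.0219 and a 95% interval of −1.70 to −0.89. Marcks, a protein kinase C substrate gene, was at 19.5 and 19 against 2.59, 2.76 and 3.07, with log2 1.45 in knockout and 2.70 in wild type, a change of −1.25 (95% interval −1.61 to −0.88, adjusted p = 0.0219). In both genes the knockout MZB libraries lay apart from the knockout FoB libraries on both scales. Tsga13 changed by −1.09 (adjusted p = 0.0219), with 0 or 1 read in each of the 5 FoB libraries of both genotypes. Zfp984, a zinc finger protein gene, was not called between the knockout cell types (log2 −0.12 ± 0.16 SE, 95% interval −0.48 to 0.23) and was higher in wild-type MZB (1.23), a change of −1.36 (adjusted p = 0.0458). Vbp1, a prefoldin subunit gene, was at −0.38 in knockout and 0.66 in wild type, and Klhl9, a ubiquitin ligase adaptor gene, at 0.43 and 1.24. Of the 30 genes, 5 (16.7%) lie on chromosome 4, as Kdm1a does, beside 6.1% of all genes tested. They are Zfp984, Klhl9 and Id3, and, named after their values were seen, Zfp982 and Gm13212, with changes of −1.50 and −2.23. Gm13212, Zfp982 and Zfp984 lie in 1 stretch, from 145585172 to 147812229, and Id3 at 136143822 to 136145392, before the Kdm1a position given above. Whether these genes changed separately was not tested.

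**Figure D4:**
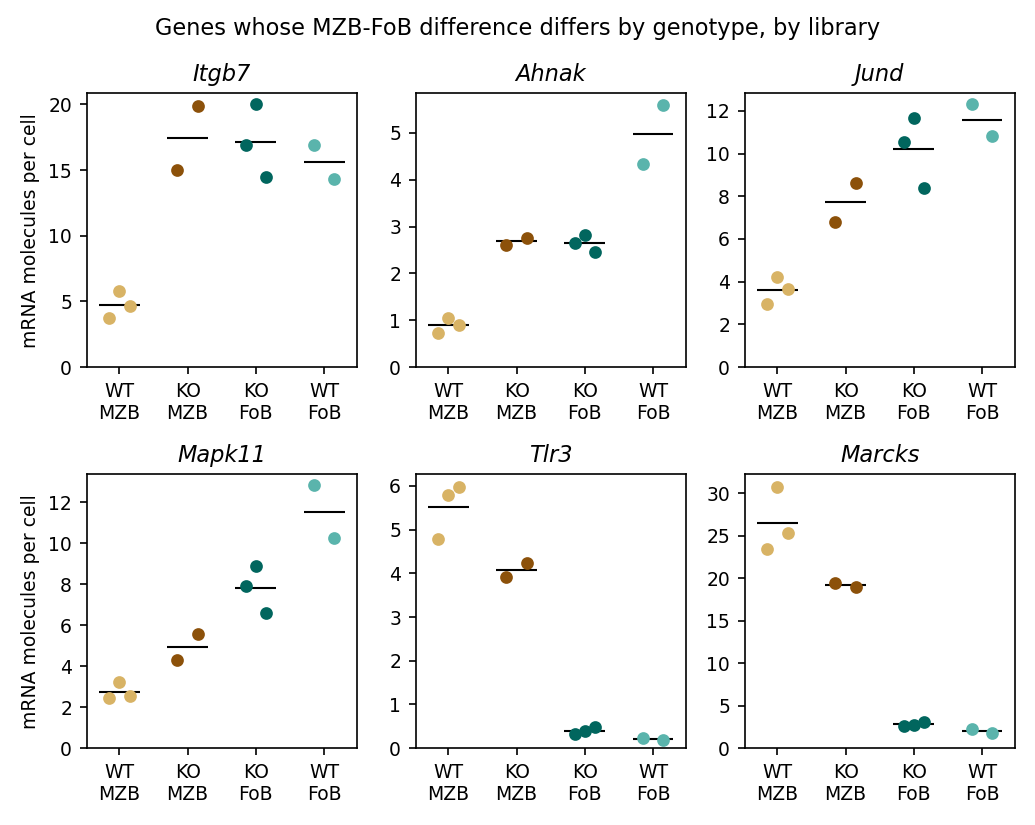
mRNA molecules per cell, as deposited (linear axes), in each library for 6 genes whose MZB minus FoB difference differed between genotypes. Points are libraries and bars group means; Itgb7 and Ahnak overlap between knockout MZB and knockout FoB, while Tlr3 and Marcks are higher in every knockout MZB library than in any knockout FoB library.

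Per cell the interaction passed for 227 genes (2.34%), 196 of them with a positive (2.02%) and 31 with a negative change (0.320%), and the median change over all genes was 0.39, beside total mRNA ratios of 2.31 in knockout and 1.75 in wild type. Leaving out wild-type FoB library 1 made this count 59, and leaving out knockout MZB library 2 made it 91. It was 637 without knockout FoB library 2, and 143 or 744 when wild-type MZB library 1 or 2 was left out. Ahnak and Itgb7 changed by 2.17 and 1.69 on this scale.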

How the data were processed

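The authors deposited 1 signal value per gene and library, named mRNA per cell in the table, for 9690 genes by Entrez identifier. All RNA of 50000 cells per sample went into a stranded poly(A) library, per the labels' protocols. STAR and mm10 are named, without a version, in the submitters' processing notes; no source used here gives the counting, the gene filter or the conversion to molecules per cell. Every column was assigned to a labelled sample (0 unassigned). Symbols and positions of 9681 genes came from the GRCm38.p6 RefSeq table, and 9 were not matched.

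Within a gene the values step by a fixed amount, the worth of 1 read, and whole reads were recovered for 100% of values (largest deviation 2.9e-05 reads, tolerance 0.1). They serve for depth and for the limma voom alternative only. Libraries held 4161051 to 6711847 reads in sum and a median gene 184 to 319 reads, so genes with few reads are the least precise. No 2 libraries were identical (0 pairs), and within groups the log values correlated at 0.982 to 0.990.

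Differences were tested two-sided on log2(value + 0.3) with limma 3.58.1 (R 4.3.3), which understates the change of low genes, over all 10 libraries with 1 coefficient for each of the 4 groups and an intensity trend. P-values were Benjamini-Hochberg adjusted over all 9690 genes with a threshold of 0.05. For rescaling, a library was divided by its scale relative to the mean library, the trimmed mean of log ratios over genes (trims of 0.3 and 0.05). Folds are ratios of rescaled group means, and ± after a log2 value is limma's standard error. The scripts were tested on simulated data. The p-values per cell may come out too small, since an error shared by all genes of a library counts as separate for each gene.

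Named genes were Kdm1a, then in each direction the 10 genes with the largest rescaled difference among those called on both scales, without overlap between libraries and with the higher group averaging 3 or more molecules per cell, the 6 with the largest interaction that passed and with the highest of the 4 groups averaging 3 or more, and the 4 or fewer genes of smallest p from each of 40 lists. Predicted genes, receptor segments and small RNA genes were left out. The compared groups, the lists and the rule were chosen with earlier results of these data known. Alternatives were other pseudocounts (0.1 and 1), a floor of 1 molecule per cell, other scalings, the knockout libraries alone, no trend, the replicate number as a block, limma voom and leaving out each library. Python 3.11.15, pandas 2.3.3 and matplotlib 3.10.9 made tables and plots.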

Additional observations from a re-analysis of the deposited data

Results flagged for a closer look

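For 12 named genes the MZB minus FoB difference differed between knockout and wild type by a test of that difference (limma interaction on rescaled values, 2 knockout MZB, 3 knockout FoB, 3 wild-type MZB and 2 wild-type FoB libraries). The change, knockout minus wild type on the log2 scale, was 1.79 for Ahnak, 1.30 for Itgb7, 0.96 for Mapk11, 0.85 for Jund, 0.83 for Klf2 and 0.83 for Id3. It was −1.36 for Zfp984, −1.29 for Tlr3, −1.25 for Marcks, −1.09 for Tsga13, −1.03 for Vbp1 and −0.81 for Klhl9. Itgb7 passed in all 19 alternatives, Ahnak in 15, Klf2, Marcks and Mapk11 in 14, Tlr3, Tsga13 and Jund in 13, Zfp984 in 11, Id3 and Vbp1 in 9 and Klhl9 in 8.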

How the results depend on the processing

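The number of genes called between knockout MZB and knockout FoB after rescaling, 3412, stayed within 1.5 times of that value in the alternatives run, except without knockout MZB library 1, where 1993 were called (1993 to 3360 over the knockout libraries left out in turn). Likewise the 2606 genes called in both genotypes ranged from 1725 without that library to 2818. The interaction counts were the least stable. After rescaling the 30 genes became 603 with limma voom and 57 with quantile scaling (87.7% of these smaller in size in the knockout), and 1 to 349 when 1 library was left out; all 30 were among the 349 called without knockout FoB library 2. Per cell the 227 became 134 with a pseudocount of 0.1, 421 with a pseudocount of 1, and 59 to 744 when 1 library was left out. Why the counts moved was not tested. Leaving out a library of a group of 2 leaves 1, whose spread is then taken to be like that of the other groups.

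Replicate numbers are shared between the groups. Deviations of same-numbered knockout libraries correlated at 0.117 for number 1 and 0.079 for number 2, against −0.117 to 0.036 between differently numbered ones. The numbers were not taken as pairs. The deviations of the 2 knockout MZB libraries mirror each other, so these values do not settle whether the numbers pair libraries. With the replicate number as a block, 3146 genes were called between the knockout cell types after rescaling and 9372 per cell, 2455 in both genotypes, and the interaction passed for 4 genes after rescaling (2 of the 30 among them) and 110 per cell.

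For the named genes, 2010 alternative values of the knockout difference kept direction and call, 60 lost the call, 7 gained it and 9 changed sign. The changes of sign were in genes that were not called in the analysis as reported. They were Zfp984 without knockout FoB library 3 (0.047; −0.248 to 0.047 over the libraries left out), Lck without knockout FoB library 2 (0.027; −0.123 to 0.027) and with summed-value scaling (0.005), and Xbp1 without knockout MZB library 1 (0.033; −0.188 to 0.033). Fas was at −0.013 with limma voom, −0.017 without knockout MZB library 1, −0.052 and −0.044 without knockout FoB library 1 or 2 (−0.052 to 0.112 over the libraries left out), and −0.447 with quantile scaling, where it was called lower (limma adjusted p = 0.0291). For the interaction, 152 values kept the call and 76 lost it. Few reads limit low genes, such as Birc5 with a mean of 2.0 reads in knockout FoB.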

Other observations

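Some gene groups not yet described also differed between the knockout cell types after rescaling. Of 6 regulators of G-protein signalling, 3 were higher and 1 lower in knockout MZB: Rgs18 was at 0.788 and 0.717 in knockout MZB against 0.113, 0.17 and 0.204 in knockout FoB (log2 1.19 ± 0.11 SE, limma adjusted p = 1.14e-05), Rgs3 was at log2 0.68 and Rgs14 at −0.49. Rgs18 was lower in knockout than in wild-type libraries of both cell types, where it stood at 2.89, 3.05 and 3.13 in MZB and 0.797 and 0.76 in FoB, a comparison not tested here.

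Of 9 Fc receptor and Fc receptor-like genes, 4 were higher and 3 lower, a balance that became even or turned under 4 alternatives. Fcmr, the receptor for IgM, was at 136 and 175 molecules per cell in knockout MZB against 112, 129 and 96.6 in knockout FoB, and after rescaling it was 1.74-fold lower (log2 −0.80 ± 0.09 SE, adjusted p = 3.21e-05). Fcgrt, the neonatal Fc receptor gene, was 3.45-fold lower (log2 −1.58 ± 0.15 SE). The other lower member was Fcer2a, which the sort used.

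Of 6 genes of immature and transitional B cells, Spn, Sox4 and Vpreb3 were lower in knockout MZB and Myb and Cd24a higher. Spn, which encodes CD43, was at 1.76 and 2.73 molecules per cell in knockout MZB and at 2.27, 2.6 and 1.76 in knockout FoB, and at log2 −1.09 ± 0.13 SE after rescaling (adjusted p = 6.42e-05). Itgb3, counted among the platelet markers and also an integrin of lymphocytes, was at log2 −0.49 in knockout and −1.40 in wild type, a change of 0.90 (limma adjusted p = 0.0219).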
